A study of Mus musculus with 4 samples.

Results

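Transcription factors that mark or pattern the lung mesenchyme were followed in whole lungs of mouse embryos at embryonic day 14.5. The group holds 10 genes, taken by symbol from the 52636 genes of the table: the T-box genes Tbx2, Tbx3, Tbx4 and Tbx5, the forkhead genes Foxf1 and Foxf2, the basic helix-loop-helix (bHLH) genes Tcf21, Twist1 and Twist2, and the homeobox gene Meox2. The rule lists them by name, and all 10 passed the filter on low values, a mean of at least 10 normalized counts. The controls (n = 2) were wild type C57BL/6 embryos. The other 2 libraries came from C57BL/6 embryos with a Yap conditional knockout, called Yap CKO, which the series title places in the epithelium. Yap, encoded by Yap1, is the coactivator that the Hippo kinases hold out of the nucleus. The labels do not give the Cre driver, the deleted exons, whether the controls carried any allele of the cross, or how many embryos made up a sample. The p-values below therefore measure the spread between these samples, which may be technical.

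The mesenchyme of the lung is the connective tissue around the branching epithelium, and it forms the fibroblasts and smooth muscle of the organ. It receives hedgehog, FGF and WNT ligands from the epithelium and mesothelium, and answers with Fgf10, which drives budding, and with Wnt2 and Wnt2b. Tbx4 and Tbx5 mark the early lung mesenchyme and are needed for its Fgf10, Tbx2 and Tbx3 are repressors that keep it dividing, Foxf1 is a mesenchymal target of hedgehog signalling, and Tcf21 marks fibroblast progenitors. Twist1, Twist2 and Meox2 are broader regulators of mesodermal mesenchyme. In the lung all 10 genes are known mainly from cells outside the epithelium, the tissue that the title names as the site of the deletion.

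Depth was 17756301 to 21333878 reads counted to genes per library. Yap1 had 5686 and 3467 normalized counts in the controls (libraries 1 and 2, in this order throughout). In Yap CKO it had 3209 and 4483, so its groups overlapped and the targeted gene did not check the labels. Every direction below compares the libraries by label alone. Xist, from the inactive X chromosome, was at 42.6 in control 1 and at 42729 to 50045 in the other libraries. Ddx3y, of the Y chromosome, was at 1726 in control 1 and at 5.77 to 16.4 in the others. By both genes control 1 differed in sex from the other libraries, and the part of sex in the differences below was not tested. The 15 heart muscle markers, all above 0 in at least 1 library, summed to 1807 and 55376 in the controls. Their sum was 12449 and 2182 in Yap CKO. Lung markers were present: all 7 lung epithelial markers were measured (Nkx2-1, the lung identity factor, at 2569 to 3333), and the 12 mesenchyme markers summed to 169916 and 199763 in the controls and to 164158 and 147926 in Yap CKO. In whole organs, fewer cells of a type and less RNA per cell cannot be told apart.

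None of the 10 genes passed the test over all genes (limma, adjusted p under 0.05), where 2.33% of 19472 genes were called (1.19% higher and 1.15% lower in Yap CKO). At an unadjusted p under 0.05 there were 5 of the 10, against 18.9% of all genes, and edgeR's quasi-likelihood test called 0 (2.07% of all genes). DESeq2 called 4 of the 10, namely Tbx3, Foxf1, Tcf21 and Meox2, against 5.33% of all genes. The libraries of the 2 groups did not overlap for 7 of the 10, 3 above and 4 below control, against 50.8% of all genes (25.2% above and 25.6% below), so this count is not far from that of genes at large. The median log2 difference of the 10 genes was -0.06, beside -0.005 over all genes tested. Around that median, 3 of the 4 T-box genes lay above control, and Foxf1, Tcf21, Meox2 and Twist2 below.

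The count called among the 10 depended on which libraries entered. Without control 1 there were 2 (Meox2 and Twist2) and without control 2 there were 5 (Tbx3, Foxf1, Tcf21, Meox2 and Twist1), each against 12.6% of all genes. Without Yap CKO 1 or Yap CKO 2 none of the 10 were called, against 0.0103% and 0.0359% of all genes. In such a fit the lone library is assumed to vary like the other group. By Xist and Ddx3y, the fit without control 2 also sets a control of one sex against Yap CKO libraries of the other. The fit without control 1 holds libraries of the same sex. The part of sex in these counts was not tested. A block that crosses the replicate numbers called 1, Meox2, against 4.99%, and the block by number called 0 against 1.76%. None were called with a pseudocount of 5 (2.44% of all genes) or 0.5 (2.32%), with a filter at a mean of 50 (2.61%, 9 of the 10 tested) or none (0.168%), with equal totals (2.41%) or median ratio scaling (2.25%), or without the intensity trend (0.0308%).

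**Figure D1:**
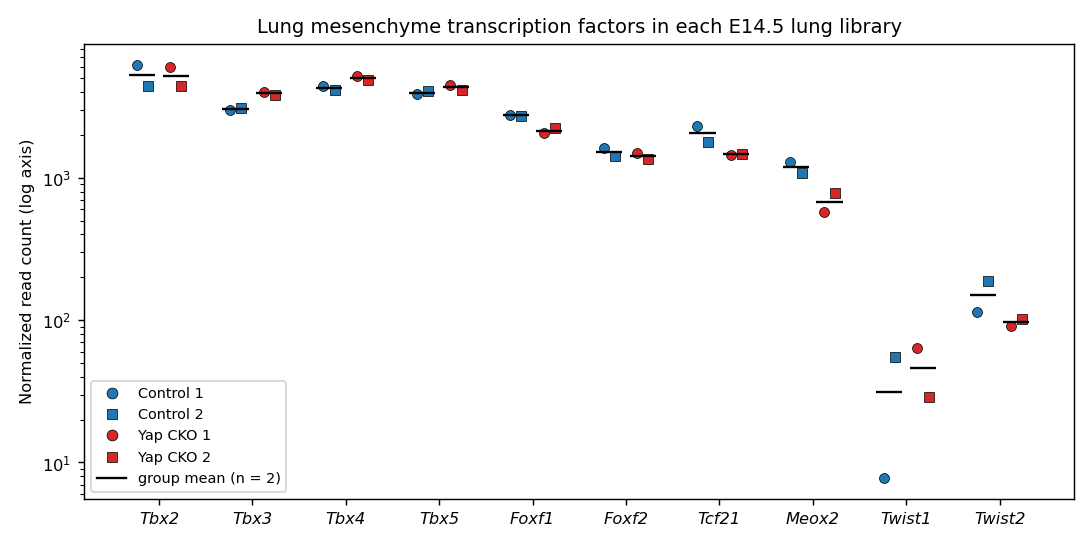
Normalized read count (log axis) of the 10 genes, 1 point per library, with black lines at the group means (n = 2 per group). Meox2 is at 1288 and 1072 in control and at 579 and 777 in Yap CKO, while Tbx2 overlaps, and Twist1 and Twist2 lie lowest, with Twist1 at 7.75 in control 1.

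Per kilobase of merged exons, Tbx2 and Tbx4 had the highest levels, with 1447 ± 271 and 1365 ± 138 normalized counts per kilobase over the 4 libraries (SD, n = 4). The same quantity was 1010 ± 147 for Foxf1, 884 ± 53.8 for Tbx5, 748 ± 172 for Tcf21, 623 ± 47.8 for Foxf2, 524 ± 77.3 for Tbx3 and 394 ± 133 for Meox2. Twist2 (38.9 ± 13.7) and Twist1 (23.8 ± 15.6) were lowest. Of the 9 neighbouring pairs in this order, only Tbx4 over Foxf1 and Meox2 over Twist2 had ranges over the libraries that did not overlap. With the longest transcript as the length, Tbx4 (1472) came before Tbx2 (1447), Tbx5 (1049) before Foxf1 (1010) and Tbx3 (697) before Foxf2 (623). From Tbx2 to Meox2, 8 of the 10 genes exceeded at least 81.2% of the 19451 tested genes with a length. Twist2 and Twist1 exceeded 28.5% and 21.0%.

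RefSeq promoter sequences of GRCm38.p6, the assembly also called mm10, were at hand for 6 of the 10 genes (Tbx4, Foxf2, Tcf21, Meox2, Twist1 and Twist2) and for Fendrr. Of these the 250 bases before the start are given for Meox2, the gene with the lowest difference, Fendrr, the RNA paired with Foxf1, and Tbx4, the T-box gene with an entry. They lie at chr12:37108290-37108539 (+ strand), chr8:121083111-121083360 (- strand) and chr11:85896515-85896764 (+ strand). Capitals mark the E-boxes CANNTG, the letters that bHLH dimers such as those of Twist1 and Tcf21 bind, and in Fendrr a forkhead site, GTAAACA.
Meox2: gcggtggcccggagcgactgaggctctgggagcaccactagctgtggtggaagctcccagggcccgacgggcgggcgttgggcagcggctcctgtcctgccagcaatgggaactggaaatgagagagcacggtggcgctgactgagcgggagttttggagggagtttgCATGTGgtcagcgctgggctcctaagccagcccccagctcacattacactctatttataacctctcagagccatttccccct
Fendrr: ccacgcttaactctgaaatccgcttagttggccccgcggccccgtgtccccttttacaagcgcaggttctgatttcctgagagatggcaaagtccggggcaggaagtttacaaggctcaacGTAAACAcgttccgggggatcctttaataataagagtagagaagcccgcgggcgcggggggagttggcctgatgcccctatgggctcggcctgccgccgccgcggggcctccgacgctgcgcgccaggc
Tbx4: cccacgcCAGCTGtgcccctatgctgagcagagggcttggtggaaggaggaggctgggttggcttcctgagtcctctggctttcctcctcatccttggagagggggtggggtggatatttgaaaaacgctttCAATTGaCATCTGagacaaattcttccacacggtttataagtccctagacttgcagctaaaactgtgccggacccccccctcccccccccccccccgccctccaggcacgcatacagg
The Tbx4 window belongs to the RefSeq start, which lies within the longer GENCODE gene. E-boxes were in the windows of Tbx4 (3), Foxf2 (1) and Meox2 (1), and 66.2% of all 32851 promoters held at least 1. The forkhead site lay 129 bases before the start of Fendrr, and 3.17% of all promoters held one. On either strand, the TEAD letters CATTCC (12.6% of all promoters), the GLI letters GACCACCCA (0.225%), the T-box site AGGTGTGA (1.12%) and the homeobox core TAATTA (4.84%) matched in none of the 7 windows. No 50-base window was shared between transcripts of any 2 of the 10 genes.

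Among the T-box genes, Tbx3 had the clearest difference between the groups. Tbx3 (mm10 chromosome 5, 119670669 to 119684724) had 2994 and 3079 normalized counts in control, and 4008 and 3813 in Yap CKO. Both Yap CKO libraries were above both controls, by a log2 difference of 0.36 ± 0.09 SE (limma, adjusted p = 0.0965, 95% interval 0.15 to 0.57). Tbx4, beside Tbx2 on chromosome 11 (85886422 to 85916097), was at 4429 and 4101 in control and at 5147 and 4895 in Yap CKO. Its groups were apart too, with a difference of 0.24 ± 0.09 (adjusted p = 0.241, interval 0.01 to 0.46). Tbx5, the neighbour of Tbx3 on chromosome 5 (119832668 to 119885219), was at 3870 and 4044 in control and at 4469 and 4151 in Yap CKO. This is a difference of 0.12 ± 0.09 with an interval of -0.10 to 0.34 (adjusted p = 0.528). Tbx2 (chromosome 11, 85832551 to 85841948) was at 6224 and 4379 in control and at 5966 and 4422 in Yap CKO. The groups of Tbx2 overlapped, with a difference of -0.02 ± 0.20 (adjusted p = 0.967), and its interval of -0.51 to 0.46 holds differences of either sign.

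Ratios of paralogs within a library do not depend on the scaling between libraries. The log2 ratio of Tbx4 to Tbx5 was 0.19 and 0.02 in control, beside 0.20 and 0.24 in Yap CKO. The difference of 0.11 had an exact permutation p of 0.333, two-sided, the smallest that 2 against 2 can give. It was 0.03 without control 2 and 0.20 without control 1. For Tbx2 to Tbx3 the log2 ratio was 1.06 and 0.51 in control and 0.57 and 0.21 in Yap CKO (exact permutation p = 0.667), and its difference of -0.39 ran from -0.66 without control 2 to -0.11 without control 1.

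**Figure D2:**
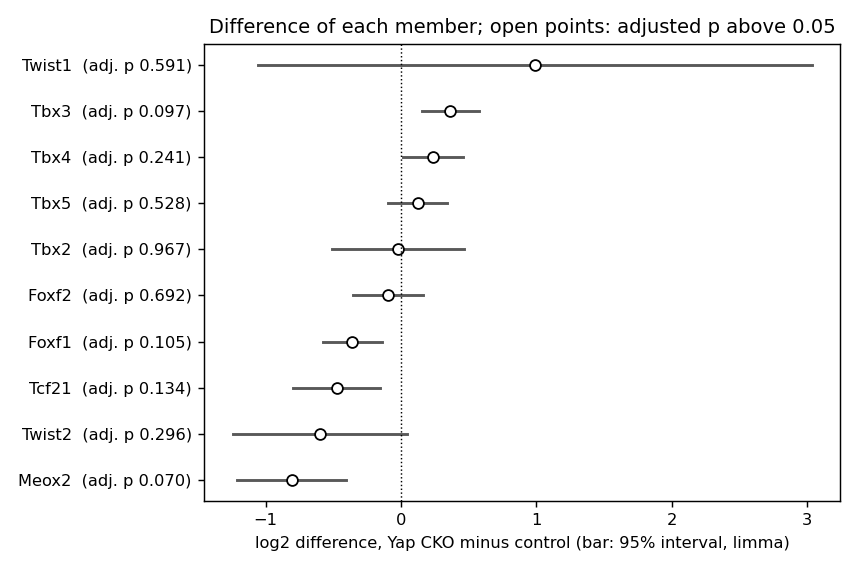
Log2 difference, Yap CKO minus control (horizontal axis), for each of the 10 genes, with its 95% interval from limma as a bar and its adjusted p beside the name. Meox2 lies lowest at -0.81 with an interval of -1.21 to -0.41, and no gene has an adjusted p under 0.05.

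Of the forkhead pair, Foxf1 was lower in Yap CKO and Foxf2 overlapped. Foxf1 (chromosome 8, 121084386 to 121088144) was at 2775 and 2705 in control and at 2056 and 2218 in Yap CKO. The 2 controls were close to each other and above both Yap CKO libraries, with a difference of -0.36 ± 0.09 (adjusted p = 0.105, interval -0.58 to -0.14). Foxf2, a related factor of gut and lung mesenchyme (chromosome 13, 31625816 to 31631403), was at 1625 and 1418 in control and at 1482 and 1363 in Yap CKO. Its difference was -0.10 ± 0.11 (adjusted p = 0.692, interval -0.36 to 0.17). The log2 ratio of Foxf1 to Foxf2 was 0.77 and 0.93 in control and 0.47 and 0.70 in Yap CKO, a difference of -0.26 (exact permutation p = 0.333) that was -0.15 without Yap CKO 1 and -0.38 without Yap CKO 2.

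Meox2 had the largest difference among the 9 genes other than Twist1. Meox2 (chromosome 12, 37108540 to 37179534) was at 1288 and 1072 in control and at 579 and 777 in Yap CKO. The group means were 1180 ± 152 and 678 ± 140 (SD, n = 2), and the fitted log2 difference amounts to 42.9% less. The difference was -0.81 ± 0.17 (limma, adjusted p = 0.0699, interval -1.21 to -0.41). It passed without control 1 (-0.68, adjusted p = 0.018) and without control 2 (-0.94, adjusted p = 2.8e-04), and did not pass without Yap CKO 1 (-0.60, 0.445) or Yap CKO 2 (-1.02, 0.155). Its paralog Meox1, named after its values were seen, lay the other way, at 211 and 325 in control and 482 and 372 in Yap CKO (0.69 ± 0.23, adjusted p = 0.191).

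The 3 bHLH genes covered very different levels. Tcf21 (chromosome 10, 22817281 to 22820174) was at 2316 and 1787 in control and at 1445 and 1478 in Yap CKO. Both Yap CKO libraries were below both controls, by -0.48 ± 0.14 (adjusted p = 0.134, interval -0.80 to -0.15). The size rested on control 1 in part, as the difference was -0.29 without it and -0.66 without control 2, where it passed (adjusted p = 5.0e-04). Twist2 (chromosome 1, 91801461 to 91848028) was at 114 and 187 in control and at 91.3 and 102 in Yap CKO. The groups were apart but control 1 was near the Yap CKO libraries. The 95% counting interval of control 1, 94.6 to 137 (exact Poisson), overlapped those of Yap CKO 1, 73.9 to 112, and Yap CKO 2, 83.4 to 123. The log2 values below are for Twist2. The difference was -0.60 ± 0.27 (adjusted p = 0.296). Without control 1 it was -0.95 and passed (adjusted p = 0.0141), and without control 2 it was -0.24. The annotated antisense gene Gm29100 covers 1477 bases of Twist2's exons, and without a stated strand setting reads there cannot be told apart.

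Twist1 (chromosome 12, 33957671 to 33959829) was the lowest of the group. It was at 7.75 and 55.0 in control and at 63.5 and 28.9 in Yap CKO, from 8, 47, 66 and 31 reads. Control 1 stood below the other libraries, with a counting interval of 3.35 to 15.3 against 19.6 to 41.0 for the next lowest, Yap CKO 2. These intervals cover counting error only. The difference of 0.99 ± 0.85 (adjusted p = 0.591) turned to -0.35 without control 1. It was 0.58 with edgeR and 0.56 with DESeq2. The log2 ratio of Twist1 to Twist2 ran from -3.88 in control 1 to -0.53 in Yap CKO 1 and overlapped between the groups (exact permutation p = 0.667), with a difference of 1.66 that was 0.60 without control 1 and 2.71 without control 2. Of the other mesenchymal transcription factor genes, some were low in control 1 and some were highest there, all named after their values were seen. Low were Ebf2 (7.75 and 150 in control, 112 and 74.6 in Yap CKO) and Osr2 (16.5 and 66.7, then 111 and 71.8). Highest in control 1 were Snai2 (5224, against 4499 to 4825) and Zeb2 (7781, against 6214 to 7303). Control 1 was also lowest for the summed heart muscle, skeletal muscle (12.6, against 15.8 to 151), gut mesenchyme (13.6, against 23.4 to 56.7) and endothelial (14699, against 14989 to 16059) markers. It was not lowest for the summed mesenchyme (169916, against 147926 to 199763), mesothelial or cartilage markers. The part of these cells in the values of Twist1 was not tested.

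Heart muscle also expresses T-box genes, so the heart markers are given beside them. Tbx20, a heart T-box gene, was at 23.3 and 2122 in control and at 506 and 208 in Yap CKO, and was highest in control 2, where the heart markers were highest. Tbx18, of the epicardium and other mesenchyme, was at 64.9 and 648 in control and 324 and 132 in Yap CKO. Tbx5, also a heart gene, differed by 1.04-fold between the 2 controls, while the heart markers differed by 30.6-fold. Tbx2 and Tbx4 were lower in control 2 than in control 1, while Tbx3 (2994 and 3079) and Tbx5 (3870 and 4044) were higher. Tbx2, Tbx3, Tbx4 and Tbx5 were each higher in Yap CKO 1 than in Yap CKO 2, as were the heart markers (12449 and 2182). Without control 2 the differences of Tbx3, Tbx4 and Tbx5 were 0.38, 0.18 and 0.15. The part of heart cells in the T-box values was not tested.

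**Figure D3:**
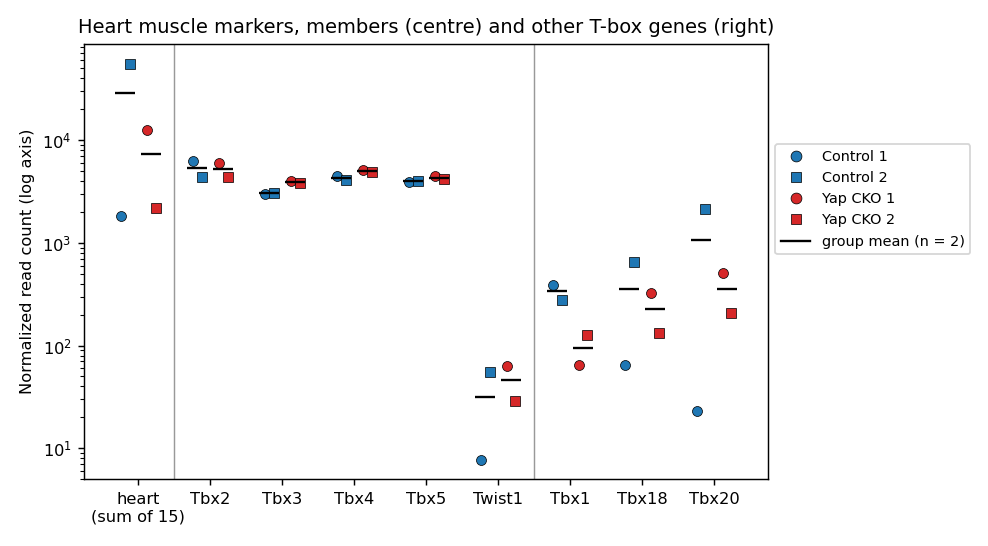
Normalized read count (log axis) of the summed heart muscle markers (left), of the 4 T-box genes of the group and Twist1 (centre), and of 3 other T-box genes (right), 1 point per library, black lines at the group means (n = 2). Tbx20 ranges from 23.3 to 2122 over the libraries, which it puts in the same order as the heart markers do, while Tbx5 stays between 3870 and 4469.

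Several of these genes share a start region with an RNA on the opposite strand, and the largest log2 differences among the 6 measured RNAs were those of Tbx3os1 and Fendrr. The annotation holds 9 genes that start within 2000 bases of the start of 7 of the 10 genes on the other strand, and 6 of them passed the filter. Tbx3os1 starts inside Tbx3, 696 bases from its start. It was at 1015 and 835 in control and at 2251 and 2031 in Yap CKO. It rose by 1.22 ± 0.12 (limma, adjusted p = 0.0116), and the call was lost without Yap CKO 1 (0.215), without Yap CKO 2 (0.109), without the filter and without the intensity trend. Its log2 ratio to Tbx3, taken with 1 added to each count, was -1.56 and -1.88 in control and -0.83 and -0.91 in Yap CKO. The exact permutation p of this ratio was 0.333. The 2 genes share 115 exon bases, and reads there cannot be told apart without strand.

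Fendrr, a long noncoding RNA of the lateral mesoderm, starts 1276 bases from Foxf1 and shares no exon with it. It was at 3393 and 2405 in control and at 4243 and 4795 in Yap CKO, a difference of 0.66 ± 0.17 that did not pass (adjusted p = 0.108, interval 0.25 to 1.06). Fendrr passed in 4 of the 15 alternative fits, DESeq2 (0.00504) among them. With 1 library left out its difference ran from 0.41 to 0.91. Foxf1 lay the other way, so the log2 ratio of Fendrr to Foxf1 was 0.29 and -0.17 in control and 1.05 and 1.11 in Yap CKO. The ratio differed by 1.02 between the groups (exact permutation p = 0.333, the smallest possible). The other partners did not pass: 1700018A04Rik beside Foxf2 (0.39, adjusted p = 0.352), 2610027K06Rik beside Tbx2 (0.23, 0.666), Gm43050 beside Tbx5 (0.06, 0.853) and Gm29100 beside Twist2 (0.05, 0.968). The rule for these partners, and Tbx3os1, were chosen after values were seen.

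**Figure D4:**
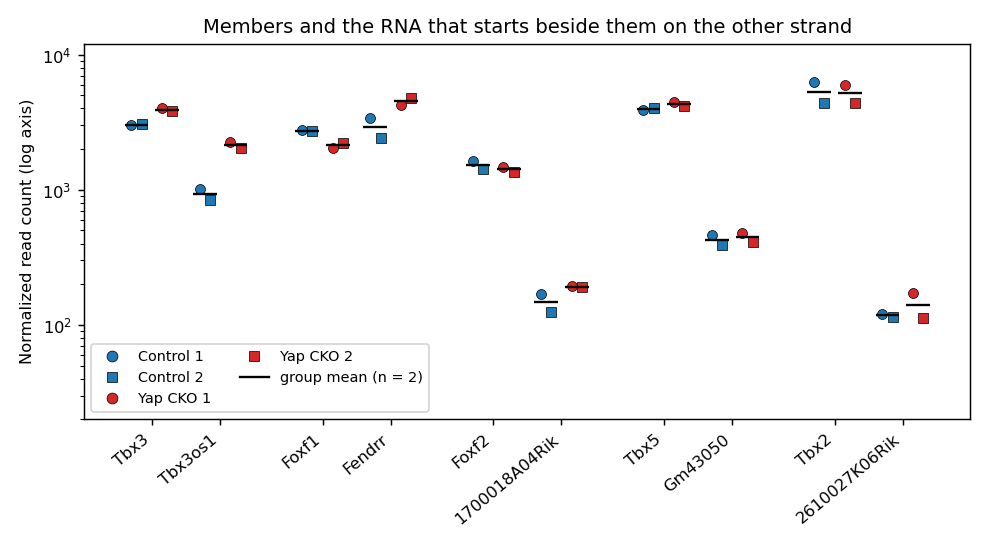
Normalized read count (log axis) of 5 genes of the group, each beside the RNA that starts near it on the other strand, 1 point per library with the group mean as a black line (n = 2). Tbx3os1 is above 2000 in both Yap CKO libraries and at 1015 and 835 in the controls, and Fendrr and Foxf1 lie on opposite sides of their controls.

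Of the genes next to the group along the chromosome, Eya4, a transcriptional coactivator gene and the nearest protein-coding neighbour on one side of Tcf21 at a distance of 282788 bases, rose from 136 and 195 to 464 and 415 (1.43 ± 0.20, adjusted p = 0.0251), a call lost without Yap CKO 1 (0.346), without Yap CKO 2 (0.223), without the filter (0.0856) and without the intensity trend (0.116). Foxl1, a gut mesenchyme factor in the cluster of Foxf1, was at 373 and 305 in control and 123 and 181 in Yap CKO (-1.17 ± 0.22, adjusted p = 0.0554). Foxl1 passed in 4 of the 15 alternative fits. Both were named after their values were seen. The gene nearest to Foxf1 on its other side, Mthfsd, differed by 0.16 (adjusted p = 0.503). Next to Twist1, Hdac9 was at -0.44 (0.263), and next to Meox2, Agmo was at 0.12 (0.889).

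Among other T-box genes the largest difference was in Tbx1, which is not a lung mesenchyme marker in the usual lists. Which cells of the lung its reads came from was not tested. Tbx1 was at 392 and 279 in control and at 64.4 and 126 in Yap CKO. It fell by 1.87 ± 0.33 on the log2 scale (limma, adjusted p = 0.0477), and the call was lost under equal totals (0.052), the replicate block (0.0658) and edgeR (0.0566), and without either Yap CKO library. Of 13 such genes 6 passed the filter, 1 fell and 5 did not pass. Mga, a large repressor with a T-box, was at 4862 and 4568 in control and 2970 and 3723 in Yap CKO (-0.50 ± 0.13, adjusted p = 0.104). Mga passed in 4 of the 15 alternative fits. Of 18 other forkhead genes chosen for a list, 17 passed the filter, of which 1 rose, 1 fell and 15 did not pass. Over all genes tested, 1.19% rose and 1.15% fell. Of the 17, 14 lay below 0, with a median of -0.14, beside -0.005 over all genes tested. Foxp2, a repressor of the distal lung epithelium, fell from 3696 and 3500 to 2064 and 2459 (-0.67 ± 0.11, adjusted p = 0.0386, and 0.0505 with the replicate block). Foxa3, a factor of gut and liver endoderm, rose from 59.1 and 45.6 to 247 and 141 (1.82 ± 0.31, adjusted p = 0.0414).

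The dimer partners of Twist1, Twist2 and Tcf21 were measured as well. Twist and Tcf21 proteins pair with E proteins (Tcf3, Tcf4, Tcf12), which the Id proteins hold off DNA. Of these 7 genes 1 rose and 6 did not pass, where 1.19% of all genes rose. Id2 rose from 2449 and 2588 to 4513 and 4237 (0.80 ± 0.09, adjusted p = 0.0146), and Id1, Id3 and Id4 lay between 0.26 and 0.29 without passing. Whole lungs do not show whether Id2 rose in cells that express the Twist genes or Tcf21. None of 5 measured other mesodermal bHLH genes passed (1 at an unadjusted p under 0.05), with Scx of tendon progenitors at -0.52 (adjusted p = 0.262) and Tcf24 at -0.52 (0.694). None of 27 other mesenchymal transcription factor genes passed limma's test (8 at an unadjusted p under 0.05), with a median of 0.11. Over all genes tested, 18.9% had an unadjusted p under 0.05. The nearest were Meis1 (0.52 ± 0.10, adjusted p = 0.055) and Nr2f1 (0.57 ± 0.13, adjusted p = 0.0808). Meis1 passed in limma under equal totals (0.0429). Both passed with DESeq2 (1.9e-04 for Meis1, 0.0163 for Nr2f1) and the crossed block (0.034 and 0.0339), but not with edgeR (0.0611 and 0.0883).

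Several signals around these factors passed the test, in which 2.33% of all 19472 genes were called. The lists were chosen with earlier results of these data known, so their counts are not a test of the lists. None of the 21 genes called in the lists passed without either Yap CKO library or without the intensity trend, and 1 (Sftpc) passed without the filter. Of 9 upstream genes 1 rose, 4 fell and 4 did not pass. Shh, the epithelial hedgehog ligand, fell by 1.86 ± 0.23 on the log2 scale (adjusted p = 0.0181). The hedgehog response genes Hhip (-1.86 ± 0.25, adjusted p = 0.0231) and Ptch1 (-0.75 ± 0.13, adjusted p = 0.0435) also fell, while Gli1, another response gene, was at 3177 and 2811 in control and 2856 and 2999 in Yap CKO (-0.03 ± 0.10). The epithelial ligand gene Wnt7b rose (0.57 ± 0.09, adjusted p = 0.037, and 0.0546 with the replicate block). Of 7 genes listed as mesenchymal signals linked to Tbx4, Tbx5 and Foxf1, 2 rose, 1 fell and 4 did not pass. Fgf10 was at 1192 and 973 in control and 2290 and 2232 in Yap CKO, a rise of 1.07 ± 0.12 (adjusted p = 0.0146), beside 0.24 for Tbx4 and 0.12 for Tbx5. Bmp4 rose by 0.50 ± 0.09 (adjusted p = 0.0483), a call lost under median ratio scaling and the replicate block. Whole lungs do not show whether Bmp4 rose in the mesenchyme or in the epithelium. Myocd, the coactivator of the smooth muscle program, fell by 1.46 ± 0.21 (adjusted p = 0.0251). Wnt2 (-0.29, adjusted p = 0.318) and Wnt2b (0.03, 0.89), named after their values were seen, did not pass.

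Of 4 genes linked to repression by Tbx2 and Tbx3, 1 fell and 3 did not pass, where 1.15% of all genes fell. The WNT antagonist gene Shisa3 fell from 573 and 506 to 327 and 304 (-0.77 ± 0.13, adjusted p = 0.0395, and 0.0523 with the replicate block). The cell cycle inhibitor genes Cdkn1a (0.23) and Cdkn1b (-0.05) and the WNT antagonist gene Frzb (0.05) did not pass, with adjusted p from 0.674 to 0.974.

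**Figure D5:**
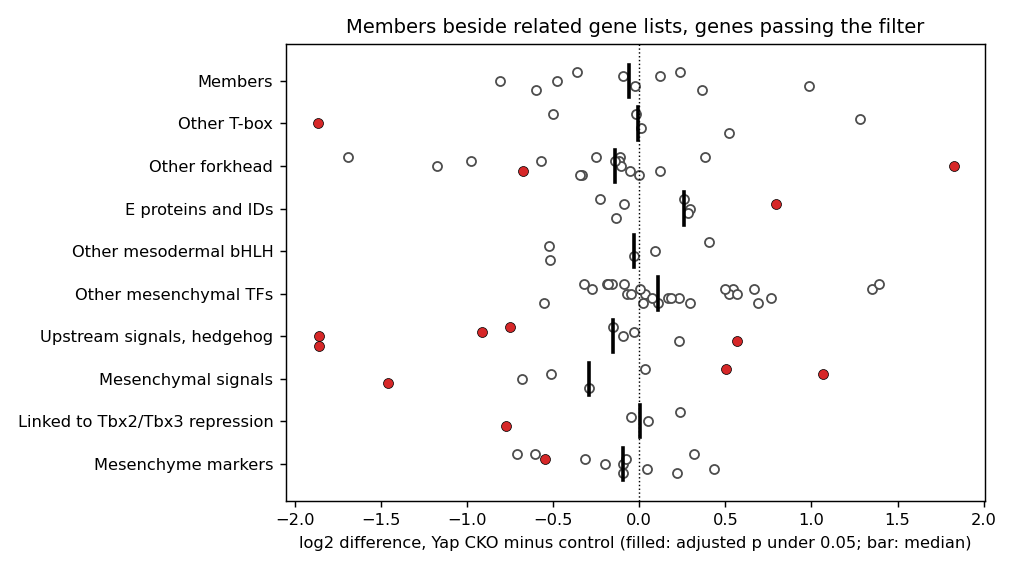
Genes that passed the filter, grouped by list (vertical axis), at their log2 difference between Yap CKO and control (horizontal axis, positive where Yap CKO is higher), where a filled point has an adjusted p under 0.05 and the black bar is the median of the list. The 10 genes of the group have no filled point and lie between -0.81 and 0.99, while Fgf10 (1.07), Shh (-1.86) and Tbx1 (-1.87) are filled.

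Markers of other cells are set beside these values. Over all genes tested, limma called 2.33%, and 18.9% had an unadjusted p under 0.05. Of 12 mesenchyme markers 1 fell (Mfap4, a microfibril gene, -0.55 ± 0.09, adjusted p = 0.0367, and 0.0514 with the replicate block) and 11 did not pass, with a median of -0.10. The 10 smooth muscle markers summed to 24286 and 28730 in control and to 10458 and 13910 in Yap CKO. Of these 4 fell (Cnn1 -1.38, Synpo2 -1.47, Actg2 -1.59, Lmod1 -1.45), with a median of -1.35, and the call of Lmod1 was lost with the replicate block (0.0732) and equal totals (0.0515). The 7 mesothelial markers summed to 4547 and 6075 in control and 4091 and 3384 in Yap CKO, and Muc16 fell (-1.14 ± 0.16, adjusted p = 0.0237). None of the 15 heart muscle markers passed limma's test (1 at an unadjusted p under 0.05, Ryr2, a calcium channel gene, -1.48, adjusted p = 0.226), nor did any of 6 endothelial (0 at an unadjusted p under 0.05), 4 measured cartilage (1) or 2 measured gut mesenchyme markers (0). The difference of Ryr2 was -2.36 without control 1, where it passed (1.7e-04), and -0.60 without control 2, and it passed with the crossed block (0.00218). The endothelial sums overlapped (14699 and 16059, 15329 and 14989), as did the epithelial sums (14312 and 13037, 13904 and 14389), where Sftpc rose (0.97) and Sox2 fell (-0.91, adjusted p = 0.0286, and 0.0503 with the replicate block). The 6 cartilage markers summed to 3668 and 3072 in control and to 4175 and 3471 in Yap CKO, with Matn1 at or under 1.17 in every library. Col9a1, a cartilage collagen gene, was at 109 and 198 in control and 361 and 343 in Yap CKO (1.26 ± 0.28, adjusted p = 0.0799). It passed in 4 of the 15 alternative fits, among them DESeq2 (0.0049) and the crossed block (0.00954). With 1 library left out its difference ran from 0.83 to 1.69. Acan, the cartilage proteoglycan gene, was at 5.81 and 53.8 in control and 84.6 and 46.6 in Yap CKO (1.72 ± 0.91, adjusted p = 0.37), with a difference of 0.22 without control 1 and 3.23 without control 2, where it passed (2.9e-05). Of the 6 skeletal muscle markers 1 passed the filter (Ckm, -1.49, adjusted p = 0.637), and of the 4 gut mesenchyme markers Nkx2-3 was at 0 in all libraries and the other 3 summed to at most 56.7. The part of these cells in the values of the 10 genes was not tested.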

How the data were processed

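Gene expression was measured by RNA sequencing of total lung at embryonic day 14.5 in 2 Control and 2 Yap CKO samples, grouped by their titles. The authors deposited normalized read counts, a signal in which each library had been divided by 1 factor; the tools listed by the submitters' processing notes are edgeR 3.18.1, DESeq 1.16.0, featureCounts 1.5.0-p1 and Bowtie2 2.2.9, on mm10, with no role or order. The gene annotation and strand setting are not given in the sources used here. For all 4 libraries 100% of values were whole multiples of 1 read (within 0.001), so reads were recovered; totals were 21285794, 17756301, 20552208 and 21333878 in controls 1 and 2 and Yap CKO 1 and 2. The limit that 0 reads allow is 3 reads, or 2.8 to 3.51 normalized counts. Replicates differed by more than sampling noise (chi-square per degree of freedom 22.1 in control and 6.64 in Yap CKO).

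Symbols, positions and lengths came from GENCODE M21 (52489 of 52636 identifiers matched). Log2(normalized count + 1) of 19472 genes with a mean of at least 10 was tested with limma 3.58.1 in R 4.3.3 (intensity trend, two-sided, Benjamini-Hochberg over all genes, call under 0.05), with 2 residual and 4.54 prior degrees of freedom. Differences subtract control from Yap CKO, and a larger pseudocount makes those of low genes smaller. edgeR 4.0.16 and DESeq2 1.42.0 ran on recovered reads. Alternatives changed pseudocount, filter, scaling, trend, block and left out each library. The members and lists were chosen with earlier results of these data known. All 10 members are named; from each list up to 4 called genes, or else the 2 with the smallest p; and the nearest neighbour genes. Fendrr is named as the RNA beside Foxf1. Genes named outside this rule, such as Mga, Gli1, Tbx18 and Tbx20, were chosen after their values were seen. For 1 called gene of the lists, values are not reported here.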

Additional observations from a re-analysis of the deposited data

How the results depend on the processing

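Of the 10 genes, 7 kept their direction in all 15 alternatives; Tbx2 turned to 0.039 under equal totals. The number called among them was 0, but 4 with DESeq2, 1 with the crossed block, and 0 to 5 when 1 library was left out (Meox2 and Twist2 without control 1; Tbx3, Foxf1, Tcf21, Meox2 and Twist1 without control 2). In those fits a lone library is assumed to vary like the other group. Without control 2 the groups also differed in sex by Xist and Ddx3y, and without control 1 they did not. Over all genes 454 were called, against 56 without a filter, 6 without the trend, 1037 with DESeq2, 972 with the crossed block, and 2 to 2459 with 1 library left out. In the lists 21 genes were called, against 1 without a filter, 0 without the trend, 36 with DESeq2, 40 with the crossed block, and 0 to 67 with 1 library left out. The cause was not tested. With 1 library left out, differences ran from -0.28 to 0.23 for Tbx2, -0.19 to 0.0025 for Foxf2, -0.35 to 2.33 for Twist1, -1.37 to 0.33 for Tcf24, -0.21 to 0.48 for Tek, -0.18 to 0.087 for Pecam1 (0.015 under equal totals), -3.67 to 0.68 for Ckm, -0.074 to 0.53 for 2610027K06Rik, -0.064 to 0.19 for Gm43050 and -0.25 to 0.35 for Gm29100. Tbx20 was 0.52, but -1.59 with edgeR, -1.6 with DESeq2 and -2.71 to 3.75 with 1 library left out. Tbx18 was 0.009, but -0.0073 with pseudocount 5, -0.64 with edgeR, -0.65 with DESeq2 and -1.64 to 1.66 with 1 library left out. Rescaling to equal totals moved the median of all genes from -0.005 to 0.057. With the replicate block 342 genes, 14 in the lists and none of the 10 were called; same-numbered deviations correlated at -0.364 over genes, so the numbers are not shown to pair the samples, and the crossed block was chosen after seeing the data. Per length, the longest transcript gave 697 for Tbx3, 1049 for Tbx5 and 982 for Tcf21. Twist1 rested on 8 to 66 reads, with the 8 in control 1, which was sequenced more deeply than control 2 with 47.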
